A study of Mus musculus with 36 samples.

Results

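TBP, the TATA-binding protein, was mapped by CUT&RUN at 7 genes whose products build the RNA polymerase II transcription machinery in mouse embryonic stem (ES) cells. The genes encode 3 subunits of RNA polymerase II (Polr2a, Polr2b, Polr2l), 1 subunit of the general factor TFIIF (Gtf2f1), 2 of TFIIH (Gtf2h4, Gtf2h5) and 1 of Mediator (Med16). They are 7 of the 21900 protein-coding genes with a position in the RefSeq table of the mm10 assembly. The 7 genes were chosen by measured values: each had a TBP peak summit within 500 bp of either end in at least 1 of the 4 summit lists of the study. The presence of a summit at these genes is therefore a description, and none of the counts of members carries a test.

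The lists came from 2 ES cell lines that both carry 1 Rosa26 allele with the tamoxifen-responsive recombinase CreERT2 (R26CreERT2/+). Both Taf7 alleles are floxed in RT7 (Taf7flox/flox) and both Taf10 alleles in RT10 (Taf10flox/flox); TAF7 and TAF10 are subunits of TFIID, the factor that brings TBP to RNA polymerase II promoters. Cells were given ethanol (EtOH), which leaves the floxed alleles intact, or 4-hydroxytamoxifen (4-OHT), which induces their deletion, from day 1 to day 3 after plating, in medium with leukemia inhibitory factor and inhibitors of GSK3 and MEK. Each line and treatment has 2 TBP libraries and 1 IgG library by the labels but 1 deposited list, so no difference between lists has a replicate check and no p-value is given. All libraries come from these 2 lines, so that the deleted gene and the line cannot be told apart. The RT7 lists held 2666 (EtOH) and 1379 (4-OHT) summits and the RT10 lists 3102 and 2188; the read depth behind them is unknown. Each summit carries the authors' score, read from the file layout and lowest values as the −log10 of a q-value against IgG, which was used to rank summits within a list. As for the labelled cell type, 5 of 8 ES cell genes had a TBP summit in at least 1 list, beside 1718 of the 21900 protein-coding genes. Nanog, Klf2 and Tfcp2l1 had one in all 4 lists, Zfp42 in both EtOH lists and Sox2 in RT10 EtOH. Pou5f1, Esrrb and Klf4 had none. Among 4 fibroblast genes Fn1 alone had a summit, in the same lists as Zfp42. A summit describes binding and not expression, and the labelled cell type was not tested.

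As background, RNA polymerase II cannot find promoters alone. TFIID places TBP on the promoter, where TBP bends the DNA at a TATA box or at sequences without one, TFIIA and TFIIB stabilise it, TFIIF escorts the polymerase, and TFIIH opens the DNA and phosphorylates the tail of the largest polymerase subunit. Mediator bridges this assembly to transcription factors bound at enhancers. RNA polymerases I and III use TBP as well, and the promoters of U6 small nuclear RNA genes, which RNA polymerase III reads, hold an octamer element and a TATA box ahead of the gene.

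The promoter sequences of 5 of the 7 genes are printed because they differ in the letters found near their summits. RefSeq gives windows (GRCm38.p6, the assembly of mm10) from 250 bases before to 50 bases after a start for all 7 genes. The 3 windows with the letters TATAAA on either strand come from Polr2a, Gtf2f1 and Med16; 13.6% of all 32851 windows hold them. The capitals mark TATAAA in all 3, GGGCGG (the GC box) in Polr2a, the overlapping TATATA in Gtf2f1 and ATGCAAAT (the octamer) in Med16. The windows lie at chr11:69758584-69758883 (Polr2a), chr17:57011239-57011538 (Gtf2f1) and chr10:79908889-79909188 (Med16), each printed from its minus strand, so that TATAAA on the opposite strand reads TTTATA in Med16.
Polr2a: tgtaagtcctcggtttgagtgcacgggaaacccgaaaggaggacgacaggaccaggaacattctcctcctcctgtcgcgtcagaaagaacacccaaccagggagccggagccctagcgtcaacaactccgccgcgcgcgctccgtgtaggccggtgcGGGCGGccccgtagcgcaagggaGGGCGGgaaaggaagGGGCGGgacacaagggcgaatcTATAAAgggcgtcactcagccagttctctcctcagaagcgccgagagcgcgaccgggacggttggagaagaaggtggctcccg
Gtf2f1: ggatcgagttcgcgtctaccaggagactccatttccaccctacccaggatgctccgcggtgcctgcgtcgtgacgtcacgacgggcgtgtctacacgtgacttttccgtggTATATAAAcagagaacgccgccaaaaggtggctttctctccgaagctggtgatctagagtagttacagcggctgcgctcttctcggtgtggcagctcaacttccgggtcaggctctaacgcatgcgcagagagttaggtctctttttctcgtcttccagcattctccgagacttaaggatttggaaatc
Med16: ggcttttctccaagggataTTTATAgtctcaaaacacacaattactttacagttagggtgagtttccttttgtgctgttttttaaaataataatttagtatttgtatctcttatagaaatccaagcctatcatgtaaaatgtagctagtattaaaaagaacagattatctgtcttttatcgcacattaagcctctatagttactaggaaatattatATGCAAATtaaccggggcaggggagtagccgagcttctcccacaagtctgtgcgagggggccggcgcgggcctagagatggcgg

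The windows of Gtf2h4 (chr17:35673694-35673993, minus strand) and Polr2b (chr5:77310234-77310533, plus strand) hold no TATAAA and are shown for other letters, which were searched after the windows had been read. The capitals mark ACTACAATT, the core of the site of the factor ZFP143, in Gtf2h4, and CGCANGCG, the core of the site of NRF1, in Polr2b.
Gtf2h4: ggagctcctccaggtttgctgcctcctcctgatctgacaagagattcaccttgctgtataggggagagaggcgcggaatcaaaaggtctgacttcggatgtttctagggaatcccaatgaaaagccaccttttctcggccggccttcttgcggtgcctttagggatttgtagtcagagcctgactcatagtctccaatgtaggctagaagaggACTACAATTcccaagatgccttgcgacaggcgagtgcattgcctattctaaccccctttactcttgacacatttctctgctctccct
Polr2b: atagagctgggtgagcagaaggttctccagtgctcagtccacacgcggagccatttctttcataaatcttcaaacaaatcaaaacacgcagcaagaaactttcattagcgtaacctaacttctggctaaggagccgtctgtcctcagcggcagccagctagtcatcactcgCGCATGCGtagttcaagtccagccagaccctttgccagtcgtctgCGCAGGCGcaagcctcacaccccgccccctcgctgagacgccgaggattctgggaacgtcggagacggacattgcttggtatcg

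Polr2a (mm10 chr11:69733997-69758633, minus strand) encodes the largest subunit, RPB1, which forms most of the catalytic centre and carries the repeat tail that TFIIH phosphorylates. It had 1 summit in each of the 4 lists. In RT7 its score was 41.0 in EtOH, rank 68 of 2666, and 59.4 in 4-OHT, rank 9 of 1379. In RT10 the score was 66.8 in EtOH, rank 30 of 3102, and 36.0 in 4-OHT, rank 89 of 2188. All 4 summits thus stood in the top 4.07% of their lists, and no other gene end lay within 500 bp of them. The lists differ in length and the scores depend on depth, so that the differences in rank between treatments cannot be read as a change in binding.

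The Polr2a summits lay upstream of its start, at 169 bp (RT7 EtOH), 279 bp (RT7 4-OHT), 205 bp (RT10 EtOH) and 152 bp (RT10 4-OHT). They spanned 127 bp over the 4 lists, beside a median span of 128 bp (quartiles 75 and 214) for the highest-scoring summits of the 427 protein-coding genes with a summit in all 4 lists. TATAAA begins 33 bp before the start on the gene's strand, and the GC box letters GGGCGG begin 93, 70 and 55 bp before it. The summits lay between 122 and 249 bp upstream of the TATAAA letters, and between 62 and 189 bp from the GC box letters farthest from the start.

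Polr2b (chr5:77310484-77349328, plus strand) encodes RPB2, the second-largest subunit, which completes the catalytic cleft with RPB1. Its single summit came from RT10 EtOH, with a score of 2.44 and rank 2723 of 3102, a score that 137 summits shared. The lower quartile of the RT10 EtOH scores was 3.75. The summit lay 88 bp upstream of Polr2b and 17 bp from the end of Noa1, a gene of a mitochondrial GTPase, and the nearer ends of the genes are 71 bp apart. It therefore cannot be assigned to Polr2b alone. The CGCATGCG letters were centred 12 bp from the summit. In the other lists the nearest summit to either end of Polr2b lay 358920 bp (RT7 EtOH), 5142327 bp (RT7 4-OHT) and 1228992 bp (RT10 4-OHT) away.

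Polr2l (chr7:141471860-141475153, minus strand) encodes a small zinc-binding subunit that RNA polymerases I, II and III share. Its single summit was in the RT7 EtOH list, with a score of 3.83 and rank 1811 of 2666, a score shared by 145 summits. It lay 101 bp upstream of Polr2l and 18 bp from the start of Tspan4, a tetraspanin gene that runs the other way with 83 bp between the starts. The window of Polr2l holds GGGCGG beginning 86, 64 and 19 bp before the start, and the summit fell 18 bp from the outermost match. No summit of the RT7 4-OHT list lay within 1577416 bp of Polr2l, while both RT10 lists had their nearest summit about 24 kb away, at Pidd1 and Rplp2 (24478 and 24424 bp).

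Gtf2f1 (chr17:57003401-57011394, minus strand) encodes RAP74, the large subunit of TFIIF. It had a summit in RT10 EtOH alone, with a score of 5.21 and rank 1761 of 3102, below the median score of that list (5.84). The summit lay 33 bp inside the outer end of the gene and 73 bp upstream of the RefSeq start used for the promoter window, with no other gene end within 500 bp. The letters TATATAAA lie 31 bp upstream of the outer end, counted from the beginning of TATAAA, and 137 bp before the RefSeq start. Gtf2f1 was thus the 1 member besides Polr2a with TATAAA about 30 bases before an annotated start on its own strand, and the summit was 61 bp from these letters.

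Gtf2h4 (chr17:35667728-35673750, minus strand) encodes p52, a core TFIIH subunit that anchors the XPB translocase. Its summit, in RT10 EtOH alone, scored 12.9 and ranked 658 of 3102, in the top 21.2%, with the same score at 29 summits. It was the highest score among the 5 members found in a single list, and the only one of them above the upper quartile of its list (11.6). The summit lay 112 bp upstream of the gene with no neighbour within 500 bp. The window holds CCAAT beginning 137 and 57 bp before the RefSeq start, which is 119 bp from the summit, and ACTACAATT 37 bp before it. ACTACAATT is in 0.393% of all windows, and Gtf2h4 is the 1 member that holds it. All 4 lists, the 3 without a summit at Gtf2h4 among them, held a summit 3102 to 3155 bp beyond its start that lay at no gene end, with scores of 3.95 to 7.79.

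Gtf2h5 (chr17:6079828-6085488, plus strand) encodes the small TFIIH subunit p8, also known as TTDA, which stabilises the complex and is needed for nucleotide excision repair. Its summit was in RT7 EtOH alone, with a score of 3.01 and rank 2049 of 2666; 208 summits shared the score, which lay below the lower quartile of 3.57. It fell 103 bp upstream of Gtf2h5 and 64 bp from the start of Serac1, a gene of phosphatidylglycerol remodelling that runs the other way from 39 bp away. GGGCGG letters on the opposite strand began 68 and 55 bp before the start. In the other 3 lists the nearest summit lay far away, at 742576 bp (RT7 4-OHT), 742384 bp (RT10 EtOH) and 742597 bp (RT10 4-OHT).

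Med16 (chr10:79894706-79908938, minus strand) encodes a subunit of the Mediator tail, the module that contacts transcription factors. Its scores ranked among the 6 highest of each list: 135 in RT7 EtOH (rank 5), 71.0 in RT7 4-OHT (rank 6), 122 in RT10 EtOH (rank 5) and 119 in RT10 4-OHT (rank 4). Unlike the summits of the other 6 genes, these lay downstream of the nearest RefSeq start. The Gtf2f1 summit was also inside its gene, 33 bp from the outer end, but upstream of its window's start. The Med16 summits lay inside the gene at 168 bp in both EtOH lists (position 79908770 in each), 198 bp in RT7 4-OHT and 106 bp in RT10 4-OHT. Their span of 92 bp lay within the quartiles given above for genes in all 4 lists. RT10 EtOH held a second summit 330 bp upstream of Med16, with a score of 6.73 and rank 1447.

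All 5 Med16 summits also lay within 500 bp of Gm24019, which the table lists as a small nuclear RNA gene of 107 bp at chr10:79909195-79909301, 257 bp from the start of Med16. The high-scoring summits were 363 to 455 bp from the nearer end of Gm24019, and the second RT10 EtOH summit was inside it, 33 bp from an end. In the Med16 window TATAAA stands on the strand opposite to Med16 and begins 31 bp before the lower coordinate of Gm24019. The octamer ATGCAAAT, found in 1.74% of all windows and searched after this window had been read, begins 34 bp before the Med16 start. Its lower coordinate lies 230 bp from that of Gm24019. The tables used here give no strand for Gm24019, and which of the 2 genes the TBP signal belongs to was not tested. The Med16 window was also the least GC-rich of the 7, at 39.3% G and C, whereas the other 6 ranged from 50.7% (Gtf2h4) to 71.0% (Polr2l); the lower quartile of all windows was 45.7% and the median 52.7%.

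**Figure D1:**
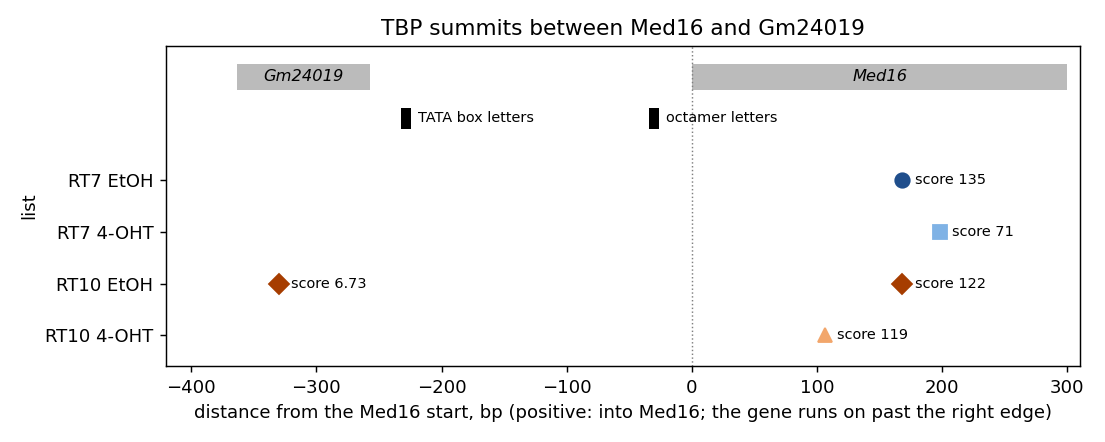
Positions of the Med16 and Gm24019 genes (grey bars), of the TATAAA and octamer letters (black) and of the TBP summits of each list (symbols, with the score), by distance in bp from the Med16 start, positive into Med16. The summits with scores of 71.0 to 135 stand 106 to 198 bp inside Med16, and the RT10 EtOH summit with a score of 6.73 stands inside Gm24019.

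Counted over the lists, 4 of the 7 genes had a summit in RT7 EtOH (Polr2a, Polr2l, Gtf2h5, Med16), where 5.32% of protein-coding genes had one, and 2 in RT7 4-OHT (Polr2a, Med16), where 2.74% had one. In RT10 the counts were 5 in EtOH (Polr2a, Polr2b, Gtf2f1, Gtf2h4, Med16) and 2 in 4-OHT (Polr2a, Med16), beside 5.96% and 3.87% of protein-coding genes. Since the genes were picked for having a summit, nothing is read from these counts against the background. The 2 EtOH lists had Polr2a and Med16 in common, and each of the other 5 genes appeared in 1 EtOH list and in no other list. Of the 1718 protein-coding genes with a summit in any list, 37.9% (35.6 to 40.2, exact Clopper-Pearson 95% interval, which covers counting error only) had it in 1 list and 24.9% (22.8 to 27.0) in all 4. With every list shortened to its 1379 highest scores, the counts in RT7 EtOH and RT10 EtOH were 2 and 3, and Polr2b, Polr2l, Gtf2f1 and Gtf2h5 were in no list.

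**Figure D2:**
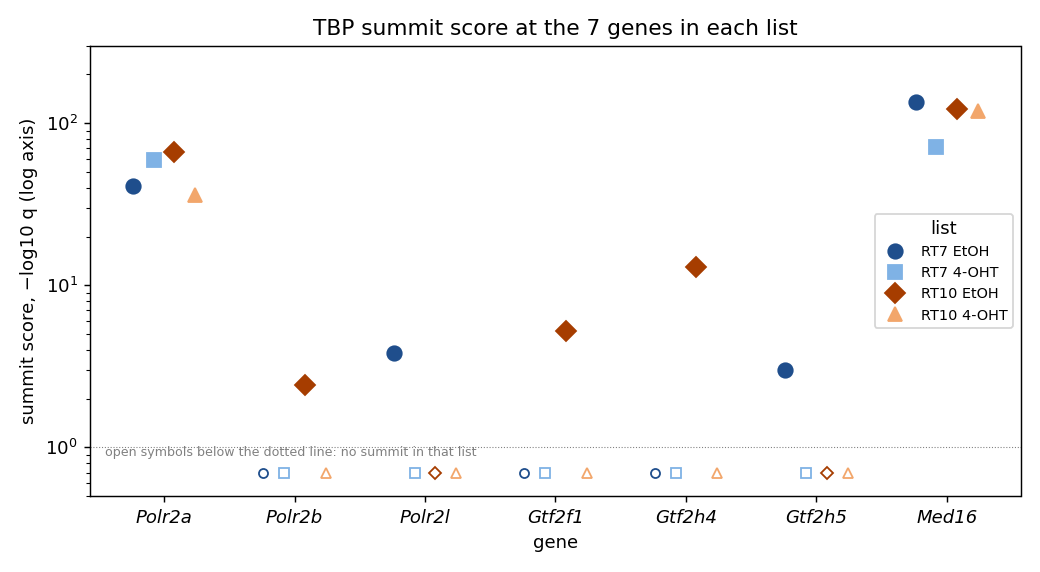
Score of the highest TBP summit at each of the 7 genes (−log10 q, log axis) by list; filled symbols are summits and open symbols under the dotted line are lists without one. Polr2a (36.0 to 66.8) and Med16 (71.0 to 135) have a summit in all 4 lists, and the other 5 genes have 1 each, with scores of 2.44 to 12.9.

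A summit was counted as kept when the 4-OHT list of the same line had a summit within 250 bp. In RT7, 2 of the 4 members with an EtOH summit kept it (Polr2a and Med16), beside 43.2% of the 1165 protein-coding genes with an EtOH summit. With 100 bp in place of 250 bp, Med16 alone counted as kept in RT7, since the Polr2a summits lay 169 and 279 bp upstream of its start. In RT10 the same genes made 2 of 5, beside 49.4% of 1305. Each EtOH list was divided at equal steps of rank into 5 bins. Summits of equal score shared the best rank of their tie and went to the same bin, so the bins differ in size. The share of protein-coding genes that kept a summit was 84.8% (80.0 to 88.7) in the highest-scoring bin of RT7 and 15.9% (10.6 to 22.6) in the lowest. In RT10 these shares were 88.3% (84.3 to 91.6) and 24.9% (19.0 to 31.5). Polr2a and Med16 were in the highest bin in both lines. Of the members that did not keep a summit, Polr2l and Gtf2h5 stood in bin 4 of RT7, where 15.8% (10.9 to 21.8) of genes kept theirs. In RT10 Gtf2h4 stood in bin 2 (58.3% kept, 52.3 to 64.1), Gtf2f1 in bin 3 (37.2%, 31.3 to 43.4) and Polr2b in the lowest. A summit that is missing from a list was not called there, which does not show that TBP was absent.

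**Figure D3:**
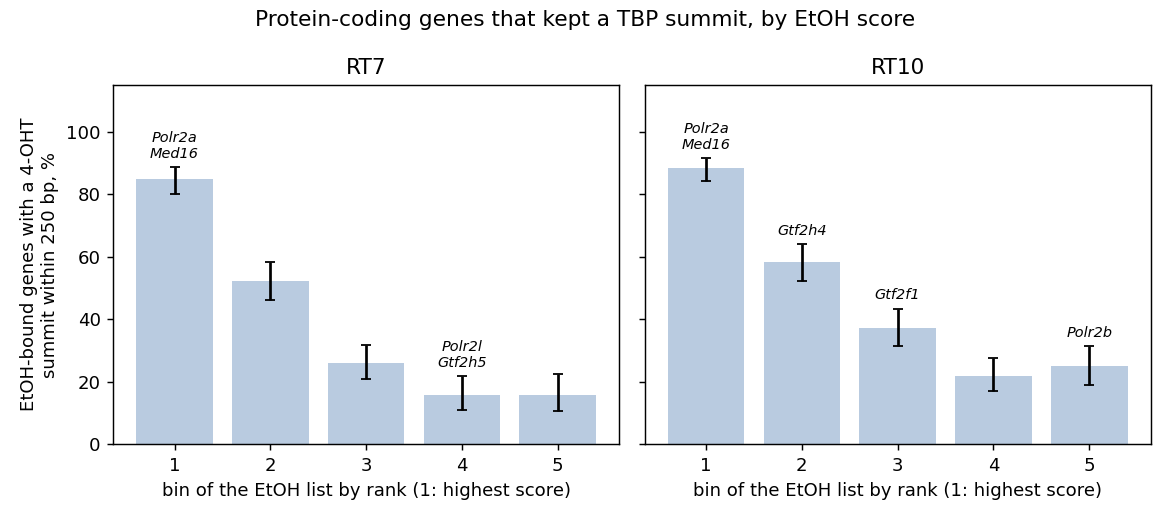
Percentage of protein-coding genes with an EtOH summit that had a 4-OHT summit within 250 bp, by bin of the EtOH list (1 is the highest-scoring of 5), with exact 95% binomial intervals; the members are written over their bin. The highest and the lowest bins stand at 84.8% and 15.9% in RT7 and at 88.3% and 24.9% in RT10, and Polr2a and Med16, the members that kept a summit, are in the highest.

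The position of the summits is a feature that the choice of the genes did not fix within the 500 bp allowed. The summits of 6 of the 7 genes lay upstream of the nearest RefSeq start, by 73 bp (Gtf2f1) to 279 bp (Polr2a in RT7 4-OHT), and Med16 was the exception. For Gtf2f1 this holds for the start of its promoter window only, as the summit lay 33 bp inside the outer end of the gene. The background was protein-coding genes whose highest-scoring summit lay at no other gene and within 500 bp of a RefSeq start. Genes without a promoter window, and those whose summit lay farther from a start, such as at the far end of the gene, were thus left out. Of the genes taken, 77.5% (73.6 to 81.0) of 511 in RT7 EtOH and 74.4% (70.6 to 77.9) of 581 in RT10 EtOH had it upstream of the start. The median positions were -134 and -123 bp from the start. The 4-OHT lists gave 68.4% (62.2 to 74.1) of 250 in RT7 and 71.2% (66.3 to 75.8) of 368 in RT10. Polr2a, Gtf2f1 and Gtf2h4 had their summits to themselves, and the upstream shares above cover such genes only. Polr2b, Polr2l, Gtf2h5 and Med16 shared their summits and have no like background here. Of all bound protein-coding genes, 44.4% shared a summit in RT7 EtOH and in RT10 EtOH. The farthest summit inside the 500 bp limit was the one 330 bp from Med16, and the nearest outside it lay 3102 bp from Gtf2h4, so that no member was close to the limit.

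**Figure D4:**
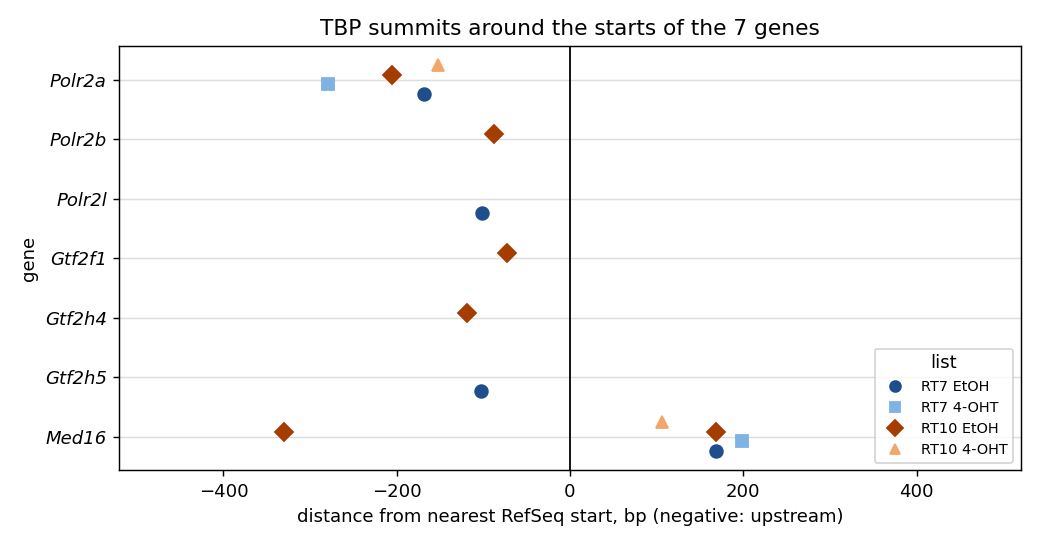
Distance in bp of each TBP summit from the nearest RefSeq start of its gene, negative upstream, by list (symbols). The summits of 6 genes stand 73 to 279 bp upstream, and those of Med16 stand 106 to 198 bp downstream, with 1 more at 330 bp upstream.

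The letters TATAAA were found in the windows of both members with a summit in all 4 lists (Polr2a and Med16) and of 1 of the 5 with a summit in 1 list (Gtf2f1). In Med16 they stand on the opposite strand, 231 bp before its start. The shares that follow likewise count either strand and any place in the window. Over all protein-coding genes with a promoter window, TATAAA was in 22.3% (18.1 to 26.9) of the 364 with a summit in all 4 lists, 7.9% (5.8 to 10.5) of the 557 with a summit in 1 list and 15.0% (14.5 to 15.6) of the 16032 with none. With histone genes left out by their symbols, the shares were 19.9% (15.8 to 24.6), 7.97% (5.85 to 10.6) and 14.9% (14.4 to 15.5). GGGCGG was in the windows of Polr2a, Polr2b, Polr2l and Gtf2h5. The share of genes with GGGCGG was 71.2% (66.2 to 75.8) with a summit in all 4 lists, 73.8% (69.9 to 77.4) in 1 list and 47.2% (46.4 to 47.9) in none. CGCANGCG, in 8.21% of all windows, was in those of Polr2b, Gtf2f1 and Gtf2h5. CCGGAAG, the core of the site of ETS factors, was in that of Gtf2f1 alone and in 8.86% of all windows, while 37.4% held CCAAT, 35.7% GGGCGG and 5.67% TATATA. These letters describe the windows and do not show a site in use.

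Over the 425 other protein-coding genes with a summit in all 4 lists, the score ranks most like those of Polr2a and Med16 belonged to core histone genes of chromosome 13. For Polr2a these were H2ac11 with H2bc11, which share a summit (mean difference of 0.593 percentage points of rank over the 4 lists), and H3c6 (0.951). For Med16 they were H2ac6 with H2bc4 (0.0745) and H3c1 (0.088). H2ac6 with H2bc4 scored 167 and 87.5 in the RT7 lists and 135 and 148 in the RT10 lists, for EtOH and 4-OHT in that order. Likeness was measured on the score ranks already given. A gene near the top of every list, as Med16 is, can therefore only be matched by others at the top, and no further resemblance was tested.

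The 7 genes were set within a list of 86 genes of the RNA polymerase II machinery, in which 13 polymerase genes, 18 genes of general factors, 33 Mediator genes and 22 genes of pausing and elongation were counted. Of the 86 genes, 16 had a summit in RT7 EtOH, 8 in RT7 4-OHT, 14 in RT10 EtOH and 9 in RT10 4-OHT. These counts hold the 7 members, which were picked for their summits. Without them, 12 of 79 genes had a summit in RT7 EtOH (15.2%, 8.1 to 25.0), beside 5.32% of all protein-coding genes, and 6 in RT7 4-OHT (7.59%, 2.84 to 15.8), beside 2.74%. In RT10 there were 9 with EtOH (11.4%, 5.34 to 20.5), beside 5.96%, and 7 with 4-OHT (8.86%, 3.64 to 17.4), beside 3.87%. Summits in all 4 lists were found at 6 of the 86 genes, Polr2a, Med16, Gtf2a1, Gtf2h1, Cdk19 and Hexim1. Without the members there were 4 of 79, beside 427 of the 21900 protein-coding genes. With all lists cut to 1379 summits, 10 of the 86 genes had a summit in RT7 EtOH and 8 in RT7 4-OHT, and likewise 10 in RT10 EtOH and 8 in RT10 4-OHT. These counts hold members picked for their summits, and the share of all protein-coding genes at this cut was not computed, so nothing is read from them. The lowest score kept in RT7 EtOH was 5.57, also the score of Cdc73, and equal scores were ordered by chromosome and position.

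Of the polymerase genes, 10 of 13 had no summit in any list, beside 20182 of the 21900 protein-coding genes. The other 3, Polr2a, Polr2b and Polr2l, are members picked for their summits, so nothing is read from this count. Among general factors, Gtf2a1, whose product TFIIA holds TBP on DNA, had scores of 13.7 (RT7 EtOH), 8.71 (RT7 4-OHT), 23.5 (RT10 EtOH) and 9.33 (RT10 4-OHT), with its RT7 summits too far apart to count as kept. Gtf2h1, which encodes the TFIIH subunit p62, shared its summits with Hps5 and scored 20.2, 8.71, 12.9 and 12.3 in the same order. Both thus stood far below Polr2a and Med16 in every list. Tbp itself was without a summit at either end in all 4 lists.

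Of 33 Mediator genes, 5 had a summit in each EtOH list (15.2%, beside 5.32% of protein-coding genes in RT7 and 5.96% in RT10), 3 in RT7 4-OHT (9.09%, beside 2.74%) and 4 in RT10 4-OHT (12.1%, beside 3.87%). Med16 was among them each time. It was picked for its summits, which raises these shares, so nothing is read from them against the background. Cdk19, which encodes a kinase of the Mediator kinase module, was found in all 4 lists with scores of 2.62 to 11.3. Med29 shared a summit with Paf1, an elongation factor gene, in 3 lists (14.8 in RT7 EtOH, 19.9 in RT10 EtOH, 12.3 in RT10 4-OHT), and Med19 was in the same 3 lists (3.57, 5.96 and 6.85). Med21 (6.94, RT7 EtOH), Med23 (3.23, RT10 EtOH) and Med1 (3.10, RT7 4-OHT) were in 1 list each, and Med1 was the 1 gene of the 86 found in a 4-OHT list only. No Mediator gene other than Med16 reached a score of 20.

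Of the pausing and elongation genes, Hexim1, which encodes an inhibitor of the elongation kinase P-TEFb, scored 34.6 (RT7 EtOH), 27.7 (RT7 4-OHT), 43.8 (RT10 EtOH) and 15.0 (RT10 4-OHT). Ell was found in 3 lists (23.9, 10.2 and 10.8), without RT10 4-OHT. Supt6 (4.68), Ell2 (2.23) and Cdc73 (5.57) had a summit in RT7 EtOH only. Without the members, 4 of the 12 machinery genes with an RT7 EtOH summit kept it (33.3%, 9.92 to 65.1), and 7 of the 9 with an RT10 EtOH summit did (77.8%, 40.0 to 97.2), beside 43.2% and 49.4% of protein-coding genes. Both intervals include the share of protein-coding genes. Med29 and Paf1 share their summit but were counted as separate genes, for which the intervals make no allowance.

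**Figure D5:**
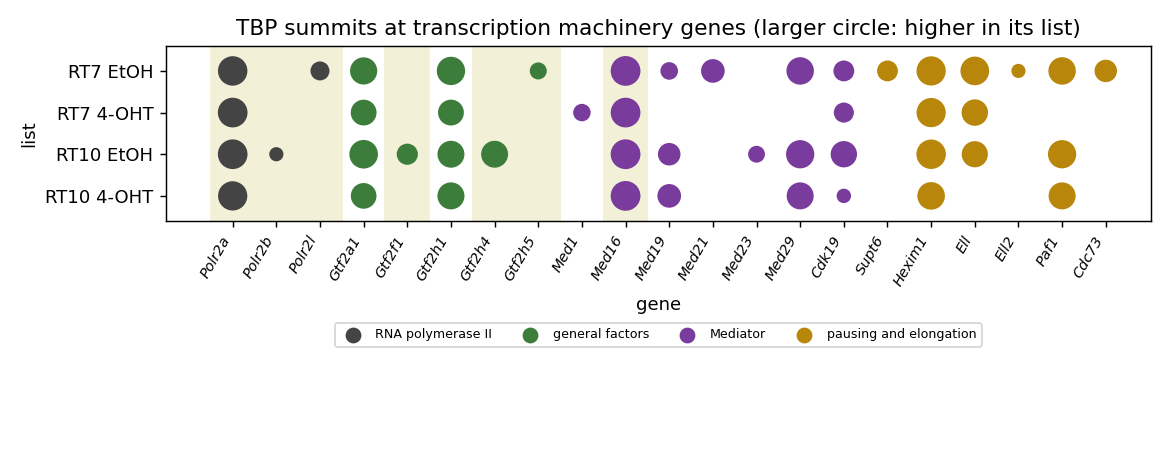
TBP summits at the 21 of 86 machinery genes with a summit in any list, by gene and list; the circle grows with the summit's rank in its list, colours give the group and the 7 members are shaded. Polr2a, Med16, Gtf2a1, Gtf2h1, Cdk19 and Hexim1 have a circle in all 4 lists, and the other members have 1 circle each.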

How the data were processed

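CUT&RUN was done in 36 libraries of 20 groups, and the 4 lists of TBP summits were analysed; binding of the TAFs was not analysed here. The submitters' processing notes name cutadapt 4.0, Bowtie2 2.4.4, SAMtools 1.15.1, bedtools, deepTools, MACS2 2.2.7.1 and build mm10 without saying what each did. The deposited score of a summit is the −log10 of a q-value for TBP over IgG, as judged from the file layout, the peak names and lowest values of 1.30 to 1.40. The authors' threshold, their use of the yeast spike-in and any pooling of libraries are not given in the sources used here. The titles of 2 IgG libraries go against their treatment labels; the peak names follow the titles.

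Gene ends and promoter windows came from RefSeq tables (GRCm38.p6), which give no exons. Genes counted as bound had a summit at most 500 bp from either end. Motifs were searched on both strands, overlaps included, as 5 fixed motifs and 3 (octamer, ZFP143, NRF1) added after the windows were read. The division into score bins and the shares without histone genes were also added after seeing the data. Named genes were the 7 members, neighbours sharing their summits, every bound gene of the machinery list, and the 3 genes most like each member bound in all 4 lists by mean absolute difference of rank percentile; nearby genes, polymerase I and III genes and cell type markers come from further lists. The members and lists were chosen with earlier results of these data known. Intervals are exact Clopper-Pearson at 95%. They take each gene as independent and may be too narrow where genes share a summit. Python 3.11.15, NumPy 2.4.6, pandas 2.3.3, SciPy 1.17.1 and matplotlib 3.10.9 were used, and the matching code was tested on simulated data. Distances, list lengths, a score minimum and transcription starts were varied.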

Additional observations from a re-analysis of the deposited data

How the results depend on the processing

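No paired analysis was possible because each line and treatment has 1 list without replicate numbers, and for the same reason no replicate could be left out. Of 84 counts of members or machinery genes recomputed under another setting, 74 stayed within 1.5 times the reported count. With scores of at least 10 only, the members bound were 2 in RT7 EtOH and 3 in RT10 EtOH, and the machinery genes bound were 8 in RT7 EtOH and 4 in RT7 4-OHT. With every list cut to the 1379 highest scores, the members bound were again 2 and 3 in the EtOH lists and the machinery genes 10 in RT7 EtOH. The shares of all protein-coding genes were not recomputed under these settings. A gene end distance of 250 bp left 1 member (Med16) and 4 machinery genes in RT7 4-OHT. Counting a summit as kept within 100 bp left 1 member (Med16) in RT7. Gene end distances of 1000 and 2000 bp, and distances from the transcription start, for which 71 of the 86 machinery genes have a window, moved no count beyond 1.5 times. Polr2a and Med16 had a summit in all 4 lists or, for Polr2a at 250 bp, in 3. Depth per library is unknown, so what it limits cannot be given.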

Other observations

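Other summits lay near the members without touching them. About 20 kb from Gtf2f1, a summit at or just beyond an end of Khsrp, which encodes an RNA-binding splicing and decay factor, was in all 4 lists, with scores of 60.9 (RT7 EtOH), 18.6 (RT7 4-OHT), 85.8 (RT10 EtOH) and 39.9 (RT10 4-OHT). A summit at Alkbh7, 5791 to 6161 bp from Gtf2f1, was in 3 lists with scores of 4.31 (RT7 EtOH), 3.10 (RT7 4-OHT) and 7.29 (RT10 EtOH). About 24 kb from Polr2l, a summit at Pidd1 and Rplp2 scored 19.4 (RT7 EtOH), 12.7 (RT10 EtOH) and 3.68 (RT10 4-OHT) and was missing from RT7 4-OHT.

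Genes of subunits specific to RNA polymerases I and III were looked at beside those of RNA polymerase II, with 16 of 19 matched in the table. Polr1a (2.23 in RT7 EtOH, 3.68 in RT10 4-OHT), Polr3d (5.57 in RT7 EtOH, 3.10 in RT7 4-OHT), Polr3e (3.23 in RT10 EtOH) and Polr3gl (2.71 in RT7 EtOH) had summits. That made 3 of 16 in RT7 EtOH (18.8%, beside 5.32% of protein-coding genes) and 1 of 16 (6.25%) in each other list. There the shares of protein-coding genes were 2.74% (RT7 4-OHT), 5.96% (RT10 EtOH) and 3.87% (RT10 4-OHT). The polymerase II genes with a summit were picked for having one, so no difference between polymerases is read from these counts. The Polr3e summit also lay at the tRNA gene n-TLaag4 and that of Polr3d at Mir320, a microRNA gene.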
